A study of Rattus norvegicus with 6 samples.

Results

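Lysine acetyltransferases were examined at the mRNA level in rat neonatal cardiomyocytes, in a group of 10 genes made up of Kat6a, Kat6b, Kat7, Kat5, Kat8, Kat2a, Kat2b, Ep300, Crebbp and Brpf1. The group was taken by gene name, together with every unannotated transcript added by the authors that overlaps a member on the same strand. It held 19 entries of the 43035 in the count table, of which 10 were annotated genes and 9 were added transcripts. Sprague-Dawley rats of postnatal day 1 provided the hearts, and the cardiomyocytes were kept in primary culture with serum. The si-NC group (3 libraries) received a scrambled siRNA and the si-DYRK1A group (3 libraries) an siRNA against DYRK1A, a protein kinase, and RNA was collected 48 h after transfection in both. The labels give no further allele or agent in either group, and describe the 3 libraries of a group as biological replicates. The study took up KAT6A as a binding partner of DYRK1A, and the question put to these libraries was whether its mRNA, or that of related enzymes, differed between the groups.

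Lysine acetyltransferases move an acetyl group from acetyl-CoA to lysines of histones and other proteins, and acetylated histone tails mark active promoters and enhancers. The MYST family comprises KAT6A (MOZ), KAT6B (MORF), KAT7 (HBO1), KAT5 (TIP60) and KAT8 (MOF). BRPF1 is a scaffold subunit of the MOZ and MORF complexes and is not an enzyme itself. KAT2A (GCN5) and KAT2B (PCAF) belong to the GNAT family and work in the SAGA and ATAC complexes, and p300 (Ep300) and CBP (Crebbp) are a closely related pair of coactivators that acetylate H3K27 and, in heart muscle, work with MEF2 and GATA4.

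Counts per library ranged from 10325074 to 11921772 in the si-NC group and from 10703229 to 11723974 in the si-DYRK1A group, so that a limit of 3 counts corresponded to 0.252 to 0.291 CPM (counts per 1000000 counts of the library). Dyrk1a itself did not check the labels. Its annotated entry held 3, 0 and 1 counts in si-NC and 2, 1 and 0 in si-DYRK1A, and its locus total was 74.8, 78.2 and 80.8 CPM in si-NC and 85.3, 80.3 and 81.5 CPM in si-DYRK1A (log2 fold change 0.08, adjusted p = 0.401, edgeR). The knockdown was therefore not visible in these counts, and si-DYRK1A below means the libraries labelled so. The study assessed the knockdown as protein, by DYRK1A immunoblot of neonatal cardiomyocytes 48 h after transfection, and reported a significant effect. That is a different measure from the mRNA counts here. Of 10 cardiomyocyte markers, 9 were matched, with Tnni3, Myh6 and Myh7 listed at 0 in every library. A marker at 0, here or below, was not read as absence of its mRNA, because added transcripts can hold a gene's counts. The marker sums leave such genes out and need not measure cell content. The summed level of the 9 was 10061 to 10971 CPM in si-NC and 12603 to 13387 CPM in si-DYRK1A. Most of the higher sum stood in Nppa, with 7566 and 9764 CPM on average. Nppa and Actn2 (1361 and 1676 CPM) were called higher. Tnnc1 (log2 fold change 0.04), Tnnt2 (-0.15) and Mybpc3 (0.45) were not called (adjusted p = 0.637, 0.544 and 0.262, edgeR). Of 8 fibroblast markers, 7 were matched, and their sum was 21472 to 26406 CPM in si-NC and 20297 to 21063 CPM in si-DYRK1A. Pdgfra was listed at 0. The lower sum rested on Col1a1, with 14365 and 11093 CPM on average (adjusted p = 0.0972 with edgeR and 0.0109 with DESeq2), whereas 5 of the 6 markers tested had positive log2 fold changes. Lum, Postn and Dcn were called higher, Dcn not with DESeq2 (adjusted p = 0.105) nor without si-DYRK1A replicate 2 (0.183) or 3 (0.0869) or si-NC replicate 1 (0.114) or 2 (0.0844). Of 6 endothelial markers, 5 were matched with none at 0, and their sum was 162 to 179 CPM against 130 to 137 CPM. Tek, Tie1 and Cdh5 were called lower, Cdh5 not without si-DYRK1A replicate 1 (adjusted p = 0.0588) or 3 (0.0650) or si-NC replicate 1 (0.0518). Kdr (log2 fold change -0.02) and Emcn (0.03) were nearly level and not called (adjusted p = 0.934 for each, edgeR). The sums of the 5 smooth muscle markers (630 to 642 against 635 to 660 CPM, Acta2 at 0, Myocd called higher) and of the 7 macrophage markers (221 to 228 against 226 to 256 CPM, Cd68 at 0, Lyz2 called higher) overlapped between groups.

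Most acetyltransferase genes carried no counts of their own. The annotated entries of Kat6a, Kat6b, Kat8, Kat2a, Crebbp and Brpf1 were at 0 in all 6 libraries, and their reads stood, where there were any, in the added transcript that covers them. For Kat6a the added transcript held 1069 counts over the 6 libraries, for Kat6b 1397, for Kat8 1814 and for Kat2b 2412, the last beside 8 in the annotated entry. Kat7 was split, with 43 counts in the annotated entry and 133 in the added transcript. Its annotated share was 16.7%, 7.14% and 42.9% in si-NC and 25.0%, 25.0% and 26.5% in si-DYRK1A, with no difference detected (exact two-sided permutation test, p = 0.8). Kat5 went the other way, with 37 counts in the annotated entry and 0 in the added transcript, and Ep300, which no added transcript overlaps, held 4128.

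**Figure D1:**
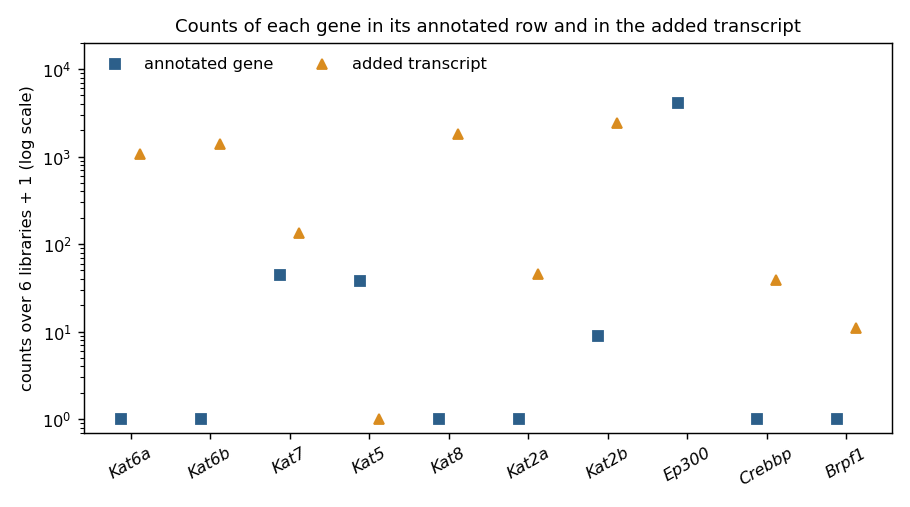
Counts summed over the 6 libraries, plus 1, on a log axis, for the annotated entry (squares) and the overlapping added transcript (triangles) of each gene. Kat6a, Kat6b, Kat8 and Kat2b have their counts almost wholly in the added transcript, Ep300 and Kat5 in the annotated entry.

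The same pattern ran through the whole table. Among protein-coding genes covered by such a transcript, 4217 of 5385 (78.3%) had under 10 counts in every library, compared with 8067 of 16865 (47.8%) of those not covered. Where the added transcript was over 1000 bases longer than the gene (2106 cases), its median total was 1350.5 counts and that of the annotated gene was 0. Where it was no longer than the gene (1380 cases), the medians were 0 for the added transcript and 25 for the gene. Where it was 1 to 200 bases longer (770 cases), as for Kat7 and Brpf1, both medians were low, at 6 and 0. Why reads were given to the added transcript was not tested. A count of 0 in an annotated acetyltransferase entry was accordingly not read as absence of the mRNA, and each gene is described below by its locus total, the sum of the annotated entry and of any added transcript that covers at least 50% of that gene and no other gene on its strand.

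Positions are those of Rnor_6.0. Kat6a (ENSRNOG00000025174) lies on the minus strand of chromosome 16 at 73943455 to 74023005, and its added transcript runs 781 bp further at the low-coordinate end, the 3′ side of this gene, with a listed length of 9321 bases against 8607. The Kat6b gene (ENSRNOG00000012850) lies on the minus strand of chromosome 15 at 2813537 to 2966576, and its added transcript extends 1604 bp and 16775 bp beyond it, with 8351 listed bases against 5553. The authors' annotation gives the added transcripts of Kat6a and Kat6b the MOZ/SAS domain, which holds the catalytic site of MYST enzymes, and the PHD finger, a histone-binding fold. Kat2b (ENSRNOG00000011871) was annotated on the minus strand of chromosome 9 at 4440982 to 4447715 only, whereas its added transcript reaches to 4492653, 44938 bp further towards the 5′ side. That transcript was listed with a PCAF N-terminal domain, a GNAT acetyltransferase domain and a bromodomain, which binds acetylated lysine.

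Kat8 (ENSRNOG00000019585, plus strand of chromosome 1, 199360645 to 199372923) and its added transcript share the same ends, but the listed lengths are 1507 and 5862 bases. Kat7 (ENSRNOG00000022664) lies on the minus strand of chromosome 10 at 83095068 to 83128297, with an added transcript that ends 675 bp beyond it. Kat5 (ENSRNOG00000061012) lies on the minus strand of chromosome 1 at 220967796 to 220974597, opposite Rnaseh2c, which held 122 counts. Ep300 (ENSRNOG00000000190, plus strand of chromosome 7, 122818975 to 122861296) was listed with 2584 bases, and Brpf1 (ENSRNOG00000008142, plus strand of chromosome 4, 145264462 to 145280857) with 4663. Antisense counts stood beside Kat7 (10 counts in AABR07030375.2) and Kat8 (19 counts in Prss8), and because whether counting used the strand is not given in the sources used here, such reads cannot be told apart.

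Kat2a and Crebbp could not be resolved. The added transcript over Kat2a (ENSRNOG00000018364, minus strand of chromosome 10, 88611586 to 88619537) also overlaps Dhx58, an RNA sensor gene, and its listed domains are those of a helicase of the RIG-I kind and not of an acetyltransferase. It held 6, 8 and 6 counts in si-NC and 6, 6 and 13 in si-DYRK1A. The added transcript over Crebbp (ENSRNOG00000005330, plus strand of chromosome 10, 11595044 to 11721039) also overlaps Trap1, a mitochondrial chaperone gene. Its listed domains include KIX, TAZ and the histone acetylation domain of CBP, and it held 7, 6 and 6 counts in si-NC and 4, 2 and 13 in si-DYRK1A. Neither transcript was added to a gene. How many of their counts came from Kat2a or Crebbp cannot be told, so no level or upper limit is given for either gene. Both transcripts, like Kat5 and Brpf1, fell under the filter on low counts and were not tested.

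Per length, Ep300 stood highest among the acetyltransferases. Its level was 23.6, 26.0 and 23.6 FPKM (fragments per kilobase of listed length, scaled to library size) in the si-NC libraries. The level of Kat2b followed at 10.1 ± 0.586 FPKM (SD, n = 3 for this and each FPKM mean here). Among the MYST enzymes the order was Kat8 with 4.25 ± 0.308 FPKM, Kat6b with 2.72 ± 0.285, Kat6a with 1.62 ± 0.125, Kat7 with 0.605 ± 0.105 and Kat5 with 0.285 ± 0.170 FPKM. Brpf1 was lowest of the genes with any counts, at 0.0415 ± 0.0394 FPKM. Each gene lay above the next in all 3 si-NC libraries, from Ep300 down to Brpf1. The gap between Kat5 (0.0905 to 0.408 FPKM) and Brpf1 (0.0176 to 0.0869 FPKM) rested on at most 8 and 5 counts per library, and their ranges nearly met. The group means of si-DYRK1A had the same order, with 22.3 ± 1.53 FPKM for Ep300, 8.11 ± 0.499 for Kat2b, 4.81 ± 0.160 for Kat8, 2.16 ± 0.241 for Kat6b, 1.74 ± 0.185 for Kat6a and 0.858 ± 0.0857 for Kat7. These levels depend on the listed lengths, and a locus level is the sum of the FPKM of its entries. For Ep300 the listed length was 2584 bases. Annotated and added entries differed, with 1507 and 5862 bases for Kat8, 5553 and 8351 for Kat6b, and 2439 and 3896 for Kat2b. From Kat8 down to Kat5, the MYST order was also that of the listed bases the added transcript has beyond the gene. These were 4355, 2798, 714, 175 and -156. Over the whole table, median counts of added transcripts rose with such extra bases. How far the order reflects mRNA levels was not tested.

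For the comparison between groups, 6 of the 10 genes had enough counts, namely Kat6a, Kat6b, Kat7, Kat8, Kat2b and Ep300. The mRNAs of Kat2b and Kat6b were lower in si-DYRK1A. The mean level of Kat2b fell by 19.8% and that of Kat6b fell by 20.8%, and none of the 6 was called higher. Kat6a did not pass the test. Across all 15074 loci tested, 15.6% were called by edgeR at an adjusted p below 0.05, 8.01% as higher and 7.64% as lower, so that 2 of 6 stands beside a background of 15.6% with too few genes to be read as more. The median log2 fold change was -0.01 over the 6 genes and 0.00 over all loci. In bulk samples such as these, fewer cells of a type and less RNA per cell cannot be told apart. The part of the shifts in some cardiomyocyte, fibroblast and endothelial markers given above in any acetyltransferase difference was not tested.

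Kat6a reached 16.2, 13.95 and 15.6 CPM in si-NC and 14.5, 16.4 and 18.0 CPM in si-DYRK1A. The ranges of the groups overlapped, with the highest library in si-DYRK1A and the lowest in si-NC. The means were 15.3 ± 1.17 and 16.3 ± 1.75 CPM (SD, n = 3), and the difference was within the spread between libraries (log2 fold change 0.10, SE 0.115, 95% interval -0.14 to 0.34, adjusted p = 0.631, edgeR). On a linear scale this interval ran from 0.908-fold to 1.26-fold, and the locus rested on 164 to 209 counts per library. An exact two-sided permutation test of the log2 CPM gave p = 0.4. Leaving out each library in turn moved the log2 fold change between 0.03 and 0.18, with adjusted p from 0.413 to 0.937.

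Kat6b, the paralog of Kat6a, reached 20.2, 23.9 and 24.6 CPM in si-NC and 15.9, 18.8 and 19.8 CPM in si-DYRK1A. Every si-DYRK1A library lay below every si-NC library, with the highest of the former at 19.8 CPM just under the lowest of the latter at 20.2 CPM. The means were 22.9 ± 2.34 and 18.2 ± 2.04 CPM (SD, n = 3), or 0.791-fold with a 95% interval of 0.677 to 0.925 (log2 fold change -0.34, SE 0.109, adjusted p = 0.0371, edgeR). The exact permutation test gave p = 0.1, the smallest that 3 libraries against 3 allow. This call was lost with DESeq2 (adjusted p = 0.0902) and limma-voom (0.0667), and in edgeR without si-DYRK1A replicate 1 (log2 fold change -0.24, adjusted p = 0.197), without si-DYRK1A replicate 2 (0.0862), without si-NC replicate 2 (0.0976) and without si-NC replicate 3 (0.139). On the FPKM values it was lost as well (0.230 to 0.330, limma). The log2 fold change stayed negative in all of these.

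The count ratio of Kat6a to Kat6b, chosen after the values had been seen, was 0.801, 0.584 and 0.634 in si-NC and 0.917, 0.870 and 0.913 in si-DYRK1A. It was higher in every si-DYRK1A library than in any si-NC library, with means of 0.673 ± 0.114 and 0.900 ± 0.0260 (SD, n = 3). The exact permutation test of this ratio gave its minimum of p = 0.1. Because the ratio was chosen from the same values, this p lends no support.

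Kat7, the catalytic subunit of the HBO1 complex, was the least abundant gene tested, with 1.73, 2.38 and 2.33 CPM in si-NC and 2.80, 3.39 and 2.94 CPM in si-DYRK1A. The groups did not overlap, but the totals rested on 18 to 36 counts per library. The log2 fold change of 0.49 (SE 0.263, 95% interval -0.05 to 1.04) did not pass the test (adjusted p = 0.232, edgeR). Kat8, the H4K16 acetyltransferase of the MSL and NSL complexes, reached 25.7, 23.1 and 26.5 CPM in si-NC and 29.2, 27.4 and 28.7 CPM in si-DYRK1A. Here too the groups did not overlap, and the log2 fold change of 0.18 (SE 0.0885, 95% interval -0.01 to 0.36) did not pass the test (adjusted p = 0.193, edgeR). Kat5, which acetylates histone H4 and the DNA damage kinase ATM, held 8, 2 and 8 counts in si-NC and 4, 9 and 6 in si-DYRK1A, and Brpf1 held 1, 1 and 5 against 0, 3 and 0. A difference in either was not detectable with so few counts.

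**Figure D2:**
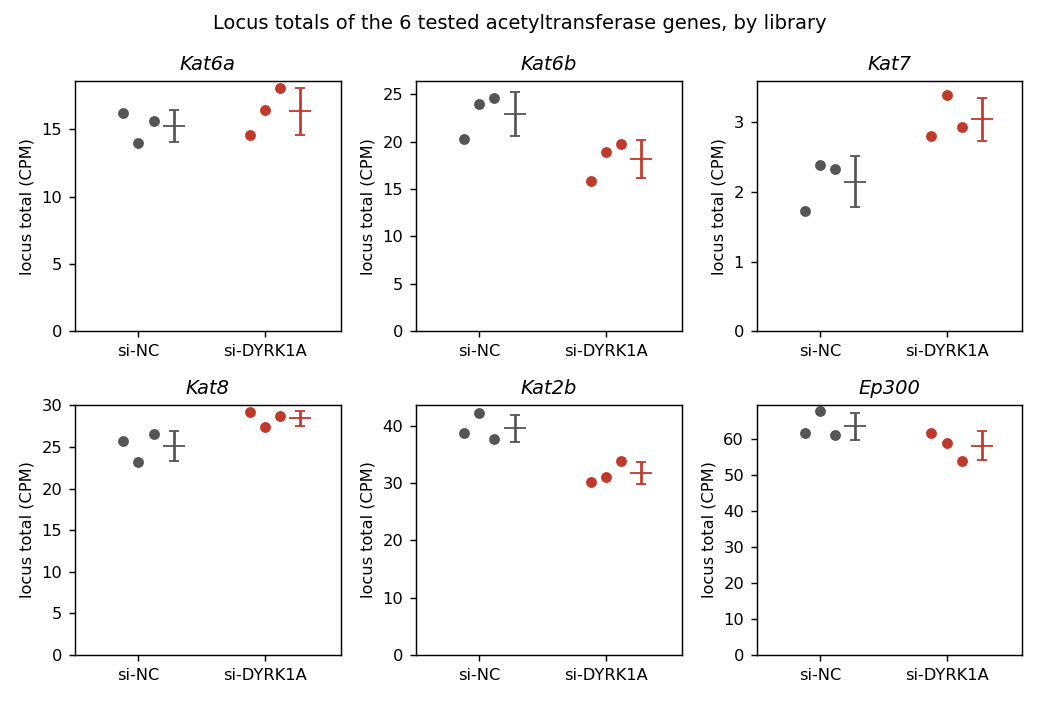
Locus totals in CPM for the 6 genes tested, with a point per library, si-NC in grey and si-DYRK1A in red, and the mean with SD (n = 3) beside the points, each axis starting at 0. The groups of Kat6a and Ep300 overlap, and those of Kat6b, Kat7, Kat8 and Kat2b do not.

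Kat2b had the smallest adjusted p of the 6 genes. It reached 38.8, 42.2 and 37.8 CPM in si-NC and 30.2, 31.1 and 33.8 CPM in si-DYRK1A. Every si-DYRK1A library lay below every si-NC library, with means of 39.6 ± 2.33 and 31.7 ± 1.89 CPM (SD, n = 3). This was 0.802-fold with a 95% interval of 0.714 to 0.901 (log2 fold change -0.32, SE 0.0810, adjusted p = 0.00863, edgeR), and the exact permutation test gave its minimum of 0.1. The call held without each library in turn (adjusted p 0.00920 to 0.0486) and with DESeq2 (0.0216) and limma-voom (0.0191), and it was lost on the FPKM values (0.0580 to 0.0991, limma). DESeq2 called this gene alone of the 6, beside 11.5% of all loci. Nearly all of the difference stood in the added transcript, since the annotated entry held 0, 2 and 0 counts in si-NC and 1, 1 and 4 in si-DYRK1A.

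Ep300, the coactivator p300, reached 61.7, 67.9 and 61.1 CPM in si-NC and 61.8, 58.8 and 54.0 CPM in si-DYRK1A. The groups overlapped through si-DYRK1A replicate 1. The means were 63.6 ± 3.76 and 58.2 ± 3.94 CPM (SD, n = 3), and the difference of -0.13 on the log2 scale (SE 0.0695, 95% interval -0.27 to 0.02) did not pass the test (adjusted p = 0.240, edgeR). In the exact permutation test p was 0.3. Of the 6 genes, 4 did not overlap between the groups, Kat6b and Kat2b downwards and Kat7 and Kat8 upwards, beside 32.1% of all loci.

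**Figure D3:**
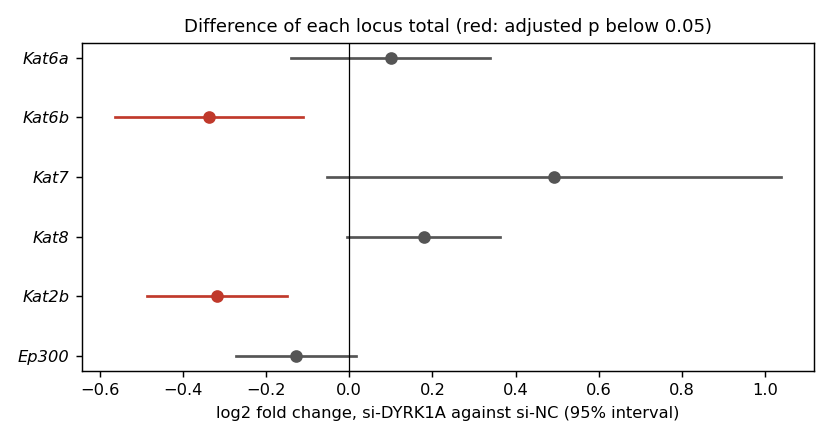
Log2 fold change of each locus total, si-DYRK1A against si-NC, with its 95% interval, for the 6 genes tested, red where the edgeR adjusted p was below 0.05. Kat6b and Kat2b lie below 0 with intervals that end short of it, and the intervals of Kat6a, Kat7, Kat8 and Ep300 include 0.

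The table as deposited gave the same calls. Of the 19 entries, 6 passed the filter, namely the added transcripts of Kat6a, Kat6b, Kat7, Kat8 and Kat2b and the annotated Ep300. The added transcripts of Kat6b (log2 fold change -0.33, adjusted p = 0.0409, edgeR) and Kat2b (-0.32, adjusted p = 0.00812) were called, 2 of 6 beside 15.2% of the 15513 features tested. The Kat6a transcript differed by 0.10 on that scale (adjusted p = 0.617). Read by annotated entry alone, only Ep300 among the 10 genes would have been tested.

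The start regions of the genes called lower are shown because Kat2b and Kat6b moved in the same direction. Sequences are from RefSeq (GRCr8, a different build from the counts) and run from 250 bases before to 50 after a listed start, 5′ to 3′ on the gene's strand. Of the 10 genes, 8 had an entry, with 17 windows in all and 8 for Kat6b, of which the window richest in CpG is given, and which start these cells used was not measured. Capitals mark GGGCGG (GC box) and CCAAT on either strand, where adjacent GC boxes can overlap.
Kat2b, chr9:6798895-6799194, plus strand: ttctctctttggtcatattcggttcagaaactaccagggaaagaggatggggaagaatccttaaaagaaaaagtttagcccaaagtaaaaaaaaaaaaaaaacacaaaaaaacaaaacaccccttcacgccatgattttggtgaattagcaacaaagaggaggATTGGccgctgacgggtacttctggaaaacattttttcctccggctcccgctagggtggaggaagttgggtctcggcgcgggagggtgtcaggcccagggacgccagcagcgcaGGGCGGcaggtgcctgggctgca
Kat6b, chr15:2860922-2861221, minus strand: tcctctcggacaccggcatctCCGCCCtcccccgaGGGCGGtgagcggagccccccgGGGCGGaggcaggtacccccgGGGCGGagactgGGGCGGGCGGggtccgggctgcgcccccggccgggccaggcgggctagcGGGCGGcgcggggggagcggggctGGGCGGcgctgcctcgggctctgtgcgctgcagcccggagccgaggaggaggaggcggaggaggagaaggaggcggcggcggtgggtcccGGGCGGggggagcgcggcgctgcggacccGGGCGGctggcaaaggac
The Kat6b window held 40 CpG dinucleotides and 10 GC boxes at 81.7% G and C. Its CpG count is high by the choice of window, since the 8 Kat6b windows ranged from 0 to 40 CpG. The Kat2b window held 12 CpG, 1 GC box and 1 CCAAT at 49.7% G and C, and 62.9% of the 33469 windows of this length held fewer CpG. Neither window shown held TATAAA or CCGGAAG (the ETS core), which 14.2% and 8.75% of all windows hold, while 33.1% hold a GC box and 37.5% a CCAAT. Another Kat6b window, with 0 CpG, held TATAAA at 2 places. These letters are descriptions of sequence and not of binding. Kat2b is listed on the plus strand in GRCr8 and on the minus strand in the positions given by the authors.

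By root mean square difference of centred log2 CPM over the 6 libraries, the loci whose profile lay nearest to that of Kat6a among 12383 annotated loci were Rnps1 (0.0141), a splicing factor, Nrn1 (0.0330), a neuritin, and Dcaf17 (0.0428), a ubiquitin ligase adaptor. The median over all these loci was 0.205. None of the 3 was called, with log2 fold changes of 0.11, 0.07 and 0.14 (adjusted p = 0.474, 0.836 and 0.324, edgeR). Because they were picked as the nearest, small distances and log2 fold changes close to that of Kat6a follow from the choice. The 3 loci are named as description only.

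Genes that work with the acetyltransferases were followed in 9 lists. Of 126 genes listed, 124 were matched and 83 tested, and 7 were called higher and 4 lower, beside 8.01% and 7.64% of all loci. Their median log2 fold change was 0.03. DESeq2 called 9 of the 11, all but Ruvbl2 (adjusted p = 0.0930) and Atxn7 (0.0811), and on the FPKM values 3 to 4 of the listed genes were called. The partners of the MOZ, MORF and HBO1 complexes showed no call, but 1 was called with library size only and 1 without si-DYRK1A replicate 1. Of the 8 listed, 5 were tested, and all 5 had negative log2 fold changes with a median of -0.12. Among these, Brd1 was level (-0.002) and Jade1 rested on 5 to 15 counts per library. For Jade2, a scaffold of HBO1, the log2 fold change was -0.26 with an adjusted p of 0.0599 in edgeR, and for Jade3 it was -0.27 with 0.129. Among the MSL and NSL partners of KAT8, 5 of 10 were tested and none was called (median 0.05). Values were 0.40 on the log2 scale for the chromodomain subunit Msl3 (edgeR adjusted p = 0.109) and 0.11 for the ubiquitin ligase Msl2 (0.460).

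**Figure D4:**
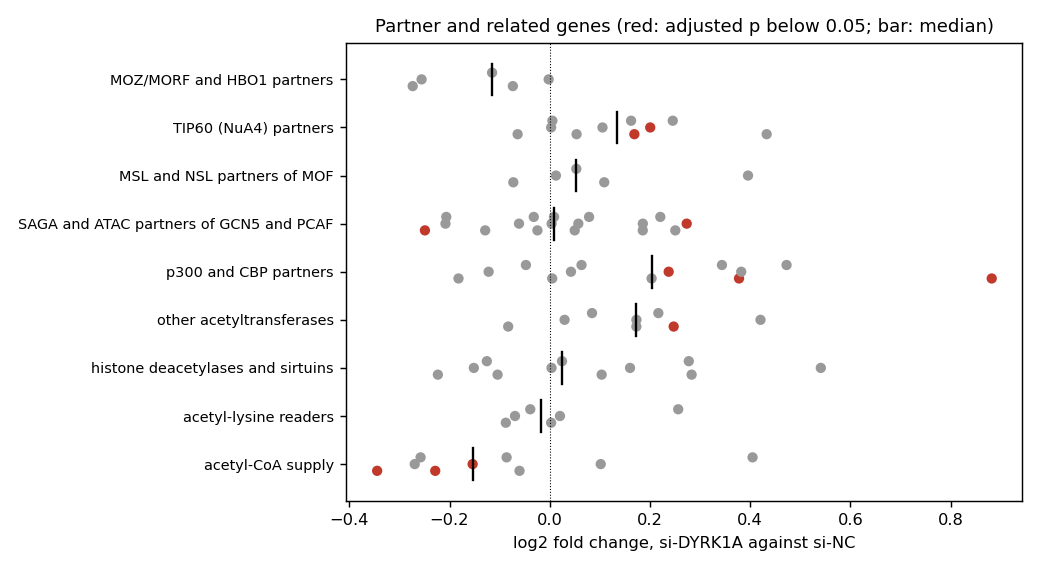
Log2 fold change of each tested partner or related gene by list, red where the edgeR adjusted p was below 0.05, with the list median as a bar. Cited1 lies furthest from 0 at 0.88, the 3 red points of the p300 and CBP list lie above 0, and those of the acetyl-CoA list lie below it.

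In the TIP60 complex, 10 of 16 genes were tested, 2 were called higher and none lower (median 0.13). This stands beside 8.01% of all loci called higher, with too few genes to be read as more. Actl6a, an actin-related subunit, rose from 90.5 ± 3.28 to 104.0 ± 3.52 CPM (SD, n = 3; log2 fold change 0.20, adjusted p = 0.0115, edgeR). Ruvbl2, an AAA ATPase, rose from 91.4 ± 3.78 to 102.7 ± 4.59 CPM (0.17, adjusted p = 0.0377). Actl6a lost its call without si-DYRK1A replicate 2 (adjusted p = 0.0706) or replicate 3 (0.0518), and Ruvbl2 without any of the 3 si-DYRK1A libraries (0.0526, 0.0614 and 0.196) or without si-NC replicate 1 (0.0783) or 3 (0.113). Of the SAGA and ATAC partners of KAT2A and KAT2B, 17 of 23 were tested, 1 was called higher and 1 lower (median 0.01). The shares over all loci were 8.01% and 7.64%. Taf10, a histone-fold subunit that SAGA shares with TFIID, rose from 78.6 ± 7.04 to 95.1 ± 4.13 CPM (SD, n = 3; log2 fold change 0.27, adjusted p = 0.00450, edgeR). Atxn7, the anchor of the SAGA deubiquitinase module, fell from 42.8 ± 2.26 to 36.0 ± 2.49 CPM (-0.25, adjusted p = 0.0339), a call lost without si-DYRK1A replicate 2 (0.187) or 3 (0.0915) or si-NC replicate 1 (0.156) or 2 (0.0582).

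Partners of p300 and CBP held the largest log2 fold change among the 83 genes tested. Of 16 genes, 13 were tested, 3 were called higher and none lower (median 0.20). Of all loci, 8.01% were called higher, and 13 genes are too few to be read as more. Cited1, a transactivator that binds the CH1 domain of p300 and CBP, rose from 16.5 ± 0.847 to 30.5 ± 3.51 CPM (SD, n = 3; log2 fold change 0.88, SE 0.101, adjusted p = 2.17e-06, edgeR). Cited2, its relative and a competitor of HIF1A for p300, rose from 304.0 ± 10.6 to 358.4 ± 5.93 CPM (0.24, adjusted p = 0.000483). Srf, a transcription factor of muscle and cytoskeletal genes, rose from 54.3 ± 0.705 to 70.6 ± 8.71 CPM (0.38, adjusted p = 0.00186). These 3 calls held without each library in turn and with DESeq2.

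Among other acetyltransferases, 8 of 12 were tested and 1 was called (median 0.17), beside 15.6% of all loci. Hat1, which acetylates newly made histone H4 before its deposition, rose from 146.8 ± 11.1 to 174.2 ± 4.43 CPM (SD, n = 3; log2 fold change 0.25, adjusted p = 0.00243, edgeR). The enzymes that remove acetyl groups showed no call: 11 of 18 histone deacetylases and sirtuins were tested, with a median log2 fold change of 0.02. Without si-NC replicate 2, and likewise without si-NC replicate 3, 1 of them was called. Hdac1 had -0.10 (adjusted p = 0.161, edgeR) and Hdac5 -0.13 (0.341). Of 12 acetyl-lysine readers, 6 were tested and none was called (median -0.02), with 0.26 for Dpf3 (adjusted p = 0.342) and -0.09 for Mllt3 (0.596).

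Of the genes listed for acetyl-CoA supply, 9 of 12 were tested, and 3 were called lower and none higher (median -0.15). Of all loci, 7.64% were called lower, and 9 genes are too few to be read as more. The list also holds Pdk1, Pdk2 and Pdk4, which act against supply, so the count and median give no direction of supply. Pdk2, a kinase that inhibits pyruvate dehydrogenase, fell from 53.2 ± 2.50 to 41.9 ± 1.29 CPM (SD, n = 3; log2 fold change -0.34, adjusted p = 0.00160, edgeR). Acly, which makes nuclear and cytosolic acetyl-CoA from citrate, fell from 556.6 ± 2.27 to 500.2 ± 15.4 CPM (-0.15, adjusted p = 0.0122). Slc25a1, the mitochondrial citrate exporter, fell from 113.6 ± 8.43 to 97.0 ± 7.20 CPM (-0.23, adjusted p = 0.0162), with groups that overlapped. Acly lost its call without si-DYRK1A replicate 2 (0.123) or 3 (0.0502) or si-NC replicate 1 (0.0641), and Slc25a1 without si-DYRK1A replicate 1 (0.106) or 2 (0.0842) or si-NC replicate 2 (0.0675) or 3 (0.0584). As background, PDK2 restrains the entry of pyruvate into acetyl-CoA while ACLY and SLC25A1 deliver acetyl groups to the cytosol.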

How the data were processed

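RNA-seq was performed on 6 libraries, 3 per group, with groups taken from the labels. Paired-end reads of 150 bp were aligned by the authors (HISAT2, Rnor_6.0), who deposited raw counts per gene as well as FPKM values. The deposited FPKM values are counts divided by the listed length and scaled by a constant per library, which held within 0.1% for all values above 0. The submitters' processing notes name Bowtie 0.12.2 and mm8 instead, and the library kit also differs between the labels and the methods. How reads were counted, with which annotation and whether by strand, is not given in the sources used here.

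Counts of 5569 added transcripts were summed into 5553 genes where they covered at least 50% of exactly 1 gene on their strand, over the whole table, which left 37466 loci. Counts of an added transcript need not come from the bases of that gene. Groups were compared with edgeR 4.0.16 under R 4.3.3, by its quasi-likelihood F-test (TMM, robust fit, filterByExpr, Benjamini-Hochberg over all loci tested, threshold 0.05, two-sided). CPM values are relative to the counts of all loci tested, scaled by TMM, and floors to the library total. The biological coefficient of variation was 8.76%. Floors of 3 counts cover counting error only. Single values were tested by exact permutation. The scripts were tested on simulated data.

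Alternatives included limma-voom (limma 3.58.1), DESeq2 1.42.0, upper-quartile and RLE scaling, scaling to library size alone, no filter or a minimum of 10 counts in all libraries, a block for the replicate number, leaving out each library, any overlap in place of 50%, the annotated entry alone, and limma on log2(FPKM + 1) or log2(FPKM + 0.1) above 0.5 FPKM, the former also without that filter. Same-numbered libraries did not deviate together, with correlations of 0.0567, -0.0277 and -0.00647. No pair of replicates matched within sampling noise (chi-square per degree of freedom 2.49 to 5.87).

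Named were all members, in each partner list the called genes (at most 4) or else the 2 with the smallest p, and the 3 loci nearest to Kat6a. The members and lists were chosen with earlier results of these data known, and Hat1 and Taf10 also stand in a gene table of the study made from the same libraries. Of 173 symbols in all lists, 168 were matched. The unmatched Taf5l, Sirt1, Ttn, Col1a2 and Pecam1 were not analysed here.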

Additional observations from a re-analysis of the deposited data

How the results depend on the processing

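No log2 fold change of an acetyltransferase changed direction under these alternatives. Kat6a did not pass the test under any of the 18 alternatives run. The count of acetyltransferase loci called was 2, and it was 1 with DESeq2 and with limma-voom, 1 to 2 without each library in turn, and 0 with log2(FPKM + 0.1), with log2(FPKM + 1), with log2(FPKM + 1) without filter and with the annotated entry alone. Among single entries the count was also 2, and it was 1 with DESeq2, limma-voom, log2(FPKM + 0.1) and log2(FPKM + 1), 0 with log2(FPKM + 1) without filter, and 1 to 2 without each library in turn. On log2(FPKM + 0.1), log2(FPKM + 1) and the latter without filter, the calls over all features went from 2360 to 1180, 1199 and 591, those over all loci from 2358 to 1204, 1207 and 660, and those in the partner lists from 11 to 4, 4 and 3. Without each library in turn, the calls ranged from 1614 to 2210 over all features, from 1623 to 2237 over all loci and from 7 to 12 in the partner lists, where 7 was reached without si-DYRK1A replicate 2 or 3. The cause of these shifts was not tested, except that the annotated entry alone leaves only Ep300 to be tested. With the replicate number as a block, the log2 fold change of Kat6a was 0.10 (adjusted p = 0.660), Kat6b and Kat2b were still called (0.0271 and 0.0129), and the counts were 2 loci, 2 entries, 2269 features, 2233 loci over the table and 10 partner genes. The numbers do not pair the libraries. DESeq2 gave no adjusted p for Kat7. The share of calls that were higher was 51.2%, and 43.9% with library size only. Low counts limit Kat7 (at most 36 counts in any library) and, below the filter, Kat5, Brpf1 and the transcripts over Kat2a and Crebbp (at most 13). Whether these counts are low through little mRNA, depth or the overlap of entries was not tested.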
